A study of Mus musculus with 6 samples.

Results

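The genes described here are 34 genes whose RNA is typical of T lymphocytes (18 genes), of cytotoxic lymphocytes and natural killer (NK) cells (9 genes) and of B lymphocytes (7 genes). They were taken by name, and each was read from a probe set that the platform annotation pairs with that 1 gene symbol. Of the 34 genes, 33 were measured, out of 19938 genes in all. Lck was not analysed here, because no probe set was paired with its symbol alone. Expression was compared between 3 JAM-A-/- mammary tumors (5333, 5346 and 5347) and 3 JAM-A+/+ mammary tumors (5369, 5370 and 5393), all resected early in their development, with 1 Affymetrix array per tumor. JAM-A, encoded by F11r, is an adhesion protein of tight junctions that is also carried by leukocytes and endothelial cells. Both groups carried the MMTV-PyMT transgene, in which the MMTV promoter drives the polyoma virus middle T oncoprotein in mammary epithelium. The JAM-A-/- mice were null in the germ line, so that host lymphocytes lacked JAM-A along with the tumor cells.

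Whole tumor tissue was hybridised, and the labels give no age, strain, litter or batch for the single arrays. They number the tumors without saying that each came from a separate mouse, so the p-values measure only the spread between these 6 tumors. The tissue label of tumor 5347 leaves out the loss of JAM-A, which its title and genotype state. F11r had RMA log2 values of 5.91, 5.55 and 6.53 in JAM-A-/- tumors, against 10.1, 10.23 and 10.47 in JAM-A+/+ tumors, a difference of -4.27 ± 0.24 (SE, limma adjusted p = 0.00667). All 6 arrays therefore carried the F11r level that their genotype label states. In the text, every value is an RMA log2 level unless it is called a difference, every difference is JAM-A-/- minus JAM-A+/+ on the log2 scale, and intervals are 95% intervals of the difference from limma.

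T cells recognise antigen with a receptor whose signal passes through the CD3 chains, and the CD4 and CD8 co-receptors divide them into helper and cytotoxic cells. Cytotoxic T cells and NK cells kill target cells by releasing perforin and granzymes, and both secrete interferon-gamma, while B cells recognise antigen with a surface immunoglobulin that signals through CD79. In mammary tumors of this transgenic model, lymphocytes lie among macrophages, and CD4+ T cells are known to act on tumor progression by way of those macrophages. The study stained tumor sections for T cells and for macrophages and antigen-presenting cells, and described the immune infiltrate of this model as very poor. It reported no stain particular to NK or B cells. The arrays allow a related question to be asked, whether the RNA of lymphocyte genes in whole tumors differs between the genotypes.

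No difference in T cell, cytotoxic and NK cell or B cell genes passed the tests. A gene met the criteria of a change when its fold was at least 1.3 in either direction and its unadjusted limma p was under 0.05. None of the 33 measured genes did so, whereas 5.33% of all 19938 genes did. Klrb1c was the 1 gene of the 33 with an unadjusted p under 0.05, which 8.16% of all genes reached, and its fold was below 1.3. After Benjamini-Hochberg adjustment over 35557 probe sets, 0.00281% of probe sets had a limma adjusted p under 0.05, which was the 1 probe set of F11r, and the lowest adjusted p among the 33 genes was 0.456.

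The median difference was 0.05 over the 33 genes, beside 0.09 over all genes. By class it was 0.01 over the 17 T cell genes, -0.03 over the 9 cytotoxic and NK genes and 0.14 over the 7 B cell genes. Differences were above 0 for 20 of the 33 genes and for 71.03% of all genes. Which side of 0 a small difference took depended on how the arrays were scaled. Of the 33 genes, 17 were above 0 after quantile normalization over the annotated probe sets, beside 50.54% of all genes. After each array was centred on its median 26 were above 0, beside 81.98% of all genes. The median over all genes was 0.0022 in the first case and 0.15 in the second.

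In 5 of the 33 genes (15.15%) the groups did not overlap, as in 15% of all genes, and in each of the 5 the JAM-A-/- tumors were higher. They were Cd5, Eomes, Ifng, Klrb1c and Fcrla. Among all genes without overlap the JAM-A-/- tumors were higher in 2474 and lower in 509. Because the arrays are of whole tissue, fewer cells of a type and less RNA per cell cannot be told apart in any of these values.

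The deposited values carry no call of whether a probe set was above background, so whether each gene was detected was not tested. The 33 genes had values of 2.67 to 8.02, in a range of 1.48 to 14.61 over all genes. On all 6 arrays, 31 of the 33 genes lay below the median of the array, which was 6.23 to 6.34, and Thy1 lay above it on all 6. Their spread was small. The median SD between tumors of a group was 0.13 for the 33 genes and 0.17 for all genes, and the median half-width of the interval was 0.30. On the array scale the intervals ran from a fold of 0.623, the lower bound of Ncr1, to 1.76, the upper bound of Thy1. With most of the genes below the array median and detection not tested, these intervals do not bound the change in RNA.

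**Figure D1:**
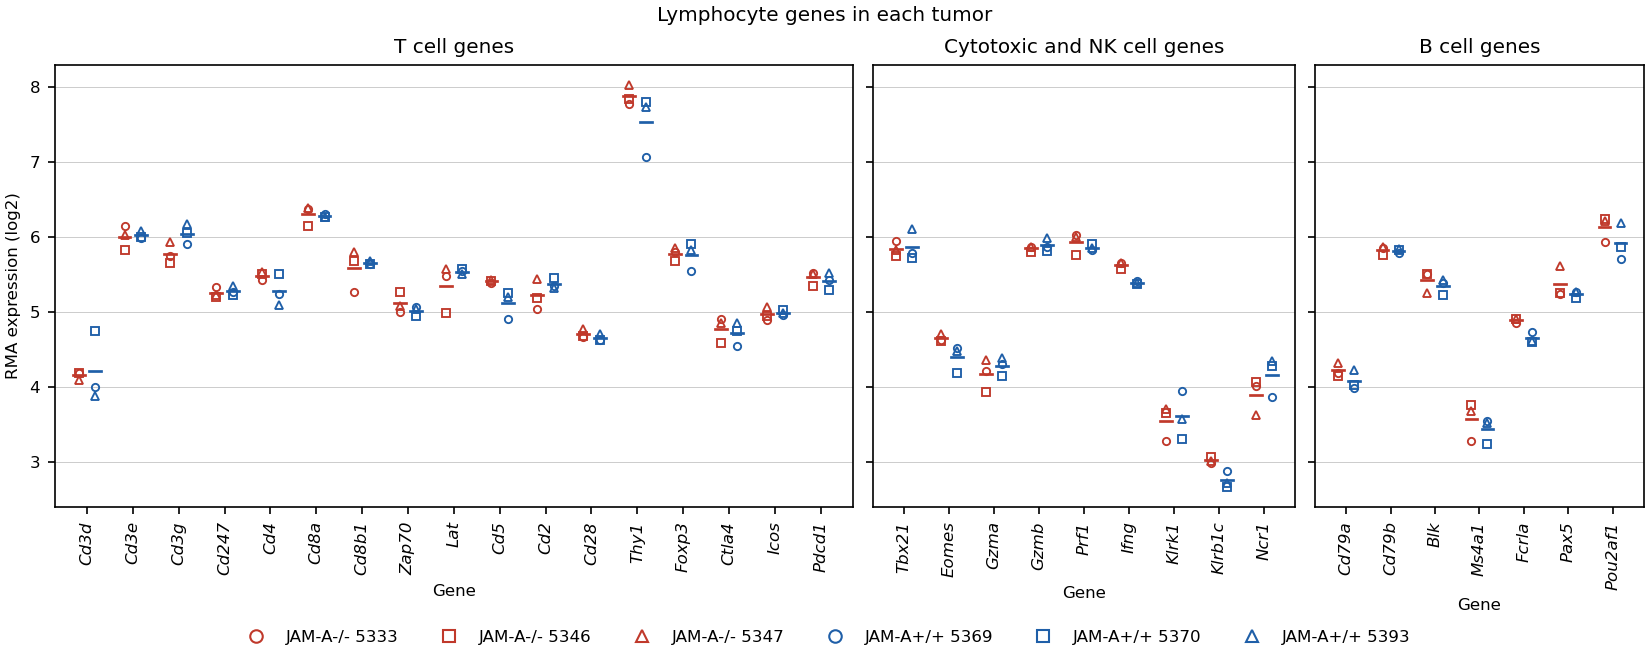
RMA log2 expression (y axis) of the 33 measured T cell, cytotoxic and NK cell, and B cell genes (x axis). Each symbol is 1 tumor, red for JAM-A-/- at the left of a gene and blue for JAM-A+/+ at its right, and each short line is a group mean. The groups overlap for 28 genes and stand apart for Cd5, Eomes, Ifng, Klrb1c and Fcrla.

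The 4 chains of the T cell receptor complex had differences from -0.27 to -0.03, and none passed the test. Cd3e, a signalling chain that every mature T cell needs, had 6.14, 5.82 and 6.02 in JAM-A-/- tumors and 5.98, 6.0 and 6.08 in JAM-A+/+ tumors, a difference of -0.03 (-0.32 to 0.26). All 3 JAM-A+/+ values lay inside the JAM-A-/- range. Cd247, the zeta chain that carries most of the signalling motifs, had 5.33, 5.20 and 5.23 in JAM-A-/- tumors, against 5.27, 5.23 and 5.35 in JAM-A+/+ tumors (-0.03, interval -0.28 to 0.22). Cd3d, the delta chain, had 4.19, 4.19 and 4.09 in JAM-A-/- tumors and 4.0, 4.74 and 3.88 in JAM-A+/+ tumors. Tumor 5370 stood above the other 5 for Cd3d, and its interval was correspondingly wide (-0.56 to 0.46). Cd3g, the gamma chain, had 5.75, 5.65 and 5.93 in JAM-A-/- tumors, against 5.91, 6.05 and 6.17 in JAM-A+/+ tumors. Its difference of -0.27 (-0.57 to 0.03) was the lowest among the T cell genes, the groups overlapped in tumors 5347 and 5369, and the limma adjusted p was 0.495. Cd3d, Cd3e and Cd3g, which are neighbours on chromosome 9, had their highest values in 3 different tumors (5370, 5333 and 5393).

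The co-receptors are the lymphocyte antigens stained in the study's sections. There the study counted more CD4+ and CD8+ cells in JAM-A-/- tumors, a difference that was not statistically significant. Cd4, the co-receptor of helper and regulatory T cells, had 5.42, 5.50 and 5.53 in JAM-A-/- tumors, against 5.24, 5.50 and 5.09 in JAM-A+/+ tumors. The JAM-A+/+ tumor 5370 lay within the range of the JAM-A-/- tumors and the other two below it, and the difference was 0.21 (-0.11 to 0.52, limma adjusted p = 0.591). As a fold, the interval of Cd4 ran between 0.927 and 1.44. Cd8a and Cd8b1 encode both chains of the co-receptor of cytotoxic T cells. Cd8a had 6.37, 6.14 and 6.39 in JAM-A-/- tumors and 6.30, 6.27 and 6.27 in JAM-A+/+ tumors, a difference of 0.02 (-0.25 to 0.29). Cd8b1 had 5.27, 5.68 and 5.80 in JAM-A-/- tumors and 5.64, 5.64 and 5.68 in JAM-A+/+ tumors, a difference of -0.07 (-0.43 to 0.29). For both, the 3 JAM-A+/+ tumors were closer to each other than the JAM-A-/- tumors were, and the interval as a fold was 0.839 to 1.23 for Cd8a and 0.743 to 1.22 for Cd8b1. The RNA of the stained co-receptors therefore did not differ detectably. Their single intervals lay between 0.743-fold and 1.44-fold on the array scale. Cd4 and Cd8b1 were below the median of every array and detection was not tested, so these intervals do not bound the change in RNA.

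Of the signalling proteins next to the receptor, 2 were measured. Zap70, the kinase that docks on the phosphorylated CD3 and zeta chains, had 5.0, 5.26 and 5.08 in JAM-A-/- tumors and 5.06, 4.94 and 5.04 in JAM-A+/+ tumors, with a difference of 0.10 (-0.18 to 0.38). Lat, the membrane adaptor that Zap70 phosphorylates, had 5.48, 4.99 and 5.57 in JAM-A-/- tumors, against 5.54, 5.57 and 5.50 in JAM-A+/+ tumors. The JAM-A-/- tumor 5346 was low for Lat and the other 5 tumors were close together. Its difference was -0.19 (-0.58 to 0.20, limma adjusted p = 0.689). With arrays weighted by their quality the difference of Lat was -0.38 and met the criteria, with a limma adjusted p of 0.253.

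Surface proteins of adhesion and co-stimulation held the highest differences among the T cell genes, and none of them passed. Cd5, an inhibitory receptor of T cells and of B-1 cells, had 5.39, 5.41 and 5.42 in JAM-A-/- tumors, against 4.91, 5.25 and 5.20 in JAM-A+/+ tumors. All 3 JAM-A-/- tumors were above all 3 JAM-A+/+ tumors, of which 5369 was the lowest, and the difference was 0.29 (-0.01 to 0.58, limma adjusted p = 0.466). Thy1, a surface glycoprotein of mouse T cells that fibroblasts and endothelium can also carry, had 7.77, 7.84 and 8.02 in JAM-A-/- tumors and 7.07, 7.80 and 7.73 in JAM-A+/+ tumors. Tumor 5369 was low here too and the groups overlapped, with a difference of 0.34 (-0.13 to 0.82, limma adjusted p = 0.557). Cd2, an adhesion receptor of T and NK cells, had 5.04, 5.19 and 5.44 in JAM-A-/- tumors and 5.34, 5.45 and 5.32 in JAM-A+/+ tumors (-0.15, interval -0.46 to 0.17). Cd28, the main co-stimulatory receptor, differed by 0.06 (-0.19 to 0.30), and all of its 6 values lay between 4.62 and 4.77.

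Genes of regulatory T cells and checkpoint receptors had differences near 0, with intervals that included it. Foxp3, the transcription factor that defines regulatory T cells, had 5.80, 5.68 and 5.85 in JAM-A-/- tumors and 5.55, 5.91 and 5.83 in JAM-A+/+ tumors. The JAM-A+/+ tumors held both the highest and the lowest value of Foxp3, and the difference was 0.01 (-0.30 to 0.32). Ctla4, the inhibitory receptor that competes with CD28, had 4.90, 4.58 and 4.85 in JAM-A-/- tumors and 4.55, 4.75 and 4.85 in JAM-A+/+ tumors, a difference of 0.06 (-0.27 to 0.39). Icos, an inducible co-stimulator, and Pdcd1, which encodes PD-1, differed by -0.02 (-0.27 to 0.23) and 0.05 (-0.23 to 0.32).

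Of the 2 transcription factors among the cytotoxic and NK genes, Eomes was without overlap between the groups and Tbx21 was not. Tbx21, which encodes T-bet and drives interferon-gamma production, had 5.95, 5.75 and 5.82 in JAM-A-/- tumors and 5.78, 5.72 and 6.11 in JAM-A+/+ tumors, a difference of -0.03 (-0.36 to 0.30). Eomes, the related factor of NK cells and CD8+ T cells, had 4.63, 4.61 and 4.70 in JAM-A-/- tumors, against 4.52, 4.19 and 4.48 in JAM-A+/+ tumors. Every JAM-A-/- value of Eomes was above every JAM-A+/+ value, and the difference was 0.25 (-0.05 to 0.55, limma adjusted p = 0.511).

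The groups overlapped for perforin and granzymes A and B and did not overlap for interferon-gamma. Prf1, perforin, which opens pores in target cells, had 6.02, 5.76 and 6.0 in JAM-A-/- tumors and 5.82, 5.90 and 5.85 in JAM-A+/+ tumors, a difference of 0.07 (-0.21 to 0.35). Gzmb, granzyme B, a protease that starts apoptosis in the target, had 5.87, 5.80 and 5.87 in JAM-A-/- tumors and 5.86, 5.81 and 5.99 in JAM-A+/+ tumors (-0.04, interval -0.30 to 0.22). Gzma, granzyme A, was lowest in the JAM-A-/- tumor 5346 and differed by -0.11 (-0.45 to 0.22). Neither perforin nor granzyme A or B thus separated the genotypes. The granzyme gene Gzmc of a wider list, described further on, was without overlap (difference 0.40). Ifng, interferon-gamma, had 5.65, 5.57 and 5.65 in JAM-A-/- tumors, against 5.41, 5.37 and 5.39 in JAM-A+/+ tumors. Here the groups did not overlap and their tumors lay close together, with a difference of 0.23 (-0.01 to 0.48, limma adjusted p = 0.467).

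The differences of the 3 NK receptor genes took both signs. Klrb1c, the gene of the NK1.1 antigen, had 2.99, 3.06 and 3.01 in JAM-A-/- tumors, against 2.88, 2.67 and 2.72 in JAM-A+/+ tumors. All JAM-A-/- tumors were above all JAM-A+/+ tumors, with a difference of 0.26 (0.0015 to 0.53), a fold of 1.2 and a limma adjusted p of 0.456. Klrk1, the gene of the activating receptor NKG2D, lies in the same cluster of NK receptor genes on chromosome 6 as Klrb1c. It had 3.28, 3.65 and 3.70 in JAM-A-/- tumors and 3.94, 3.31 and 3.57 in JAM-A+/+ tumors, a difference of -0.06 (-0.51 to 0.38), with both the highest and a low value in JAM-A+/+ tumors. Ncr1, which encodes NKp46, a receptor largely restricted to NK cells, had 4.01, 4.06 and 3.62 in JAM-A-/- tumors and 3.86, 4.28 and 4.34 in JAM-A+/+ tumors. Its difference was -0.26 (-0.68 to 0.16, limma adjusted p = 0.604), opposite in sign to that of Klrb1c. Without tumor 5369 the difference of Ncr1 was -0.41 and met the criteria, with a limma adjusted p of 0.737.

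**Figure D2:**
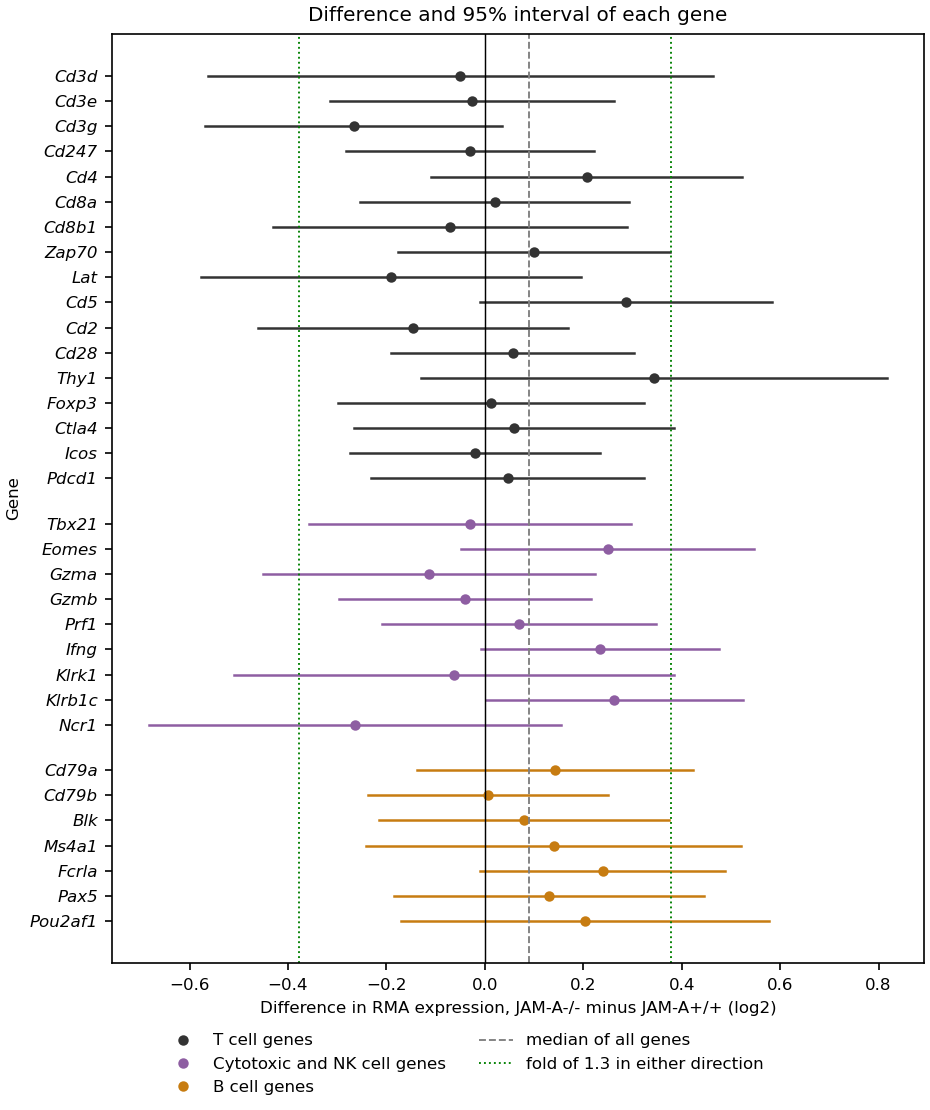
Difference in RMA log2 expression, JAM-A-/- minus JAM-A+/+ (x axis), of each measured lymphocyte gene (y axis), with its 95% interval from limma as a line. The dashed line is the median of all genes, 0.09, and the dotted lines mark a fold of 1.3 in either direction, which no gene's difference passed.

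All 7 B cell genes had differences above 0 in the deposited values, from 0.01 to 0.24, and none passed the test. Of all genes, 71.03% were above 0 in these values. After quantile normalization over the annotated probe sets 6 of the 7 were above 0, beside 50.54% of all genes. Cd79a and Cd79b encode the signalling chains of the B cell receptor. Cd79a had 4.19, 4.15 and 4.32 in JAM-A-/- tumors and 3.98, 4.03 and 4.22 in JAM-A+/+ tumors, a difference of 0.14 (-0.14 to 0.42). Cd79b had 5.85, 5.76 and 5.86 in JAM-A-/- tumors and 5.78, 5.83 and 5.84 in JAM-A+/+ tumors, a difference of 0.01 (-0.24 to 0.25). Blk, a Src-family kinase of B cells, differed by 0.08 (-0.21 to 0.37). In all 3 genes of the receptor complex and its kinase the groups overlapped.

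Fcrla, an intracellular Fc receptor-like protein of B cells, had 4.85, 4.91 and 4.90 in JAM-A-/- tumors, against 4.73, 4.60 and 4.61 in JAM-A+/+ tumors. The groups did not overlap and the difference was 0.24 (-0.01 to 0.49, limma adjusted p = 0.467). Fcrla lies on chromosome 1, only 24 measured genes from F11r, the deleted gene, and Cd247 lies 56 measured genes from it, while the other genes of the list on chromosome 1 are at least 390 away. Ms4a1, which encodes CD20, had 3.28, 3.76 and 3.68 in JAM-A-/- tumors and 3.54, 3.24 and 3.52 in JAM-A+/+ tumors, a difference of 0.14 (-0.24 to 0.52).

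Pax5, the transcription factor that holds B cell identity, had 5.24, 5.25 and 5.61 in JAM-A-/- tumors and 5.26, 5.19 and 5.26 in JAM-A+/+ tumors. Tumor 5347 alone was high, the other 5 tumors lay between 5.19 and 5.26, and the difference was 0.13 (-0.19 to 0.45). Pou2af1, a co-activator of the octamer factors in B cells, had 5.93, 6.24 and 6.21 in JAM-A-/- tumors and 5.71, 5.87 and 6.19 in JAM-A+/+ tumors, a difference of 0.20 (-0.17 to 0.58, limma adjusted p = 0.653). The highest value of each B cell gene was in a JAM-A-/- tumor, 5346 for 4 genes and 5347 for 3. Of all 19938 genes, 2703 were highest in tumor 5333, 3442 in 5346 and 8553 in 5347.

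To show the regulatory DNA next to the start of the genes that stood apart, the 250 bases before the start are printed for the 3 of smallest p among the genes without overlap, from the RefSeq promoter table of GRCm38.p6. Klrb1c is on the minus strand (chr6:128788642-128788891), Cd5 on the minus strand (chr19:10738975-10739224) and Ifng on the plus strand (chr10:118440796-118441045). Capitals mark matches, on either strand, to 7 motifs bound by factors of lymphocytes or of basal transcription. They were the Ets motif spelled AGGAAG, the motif of the RUNX factors spelled TGTGGT, the E-box in the form CAGGTG, which lymphoid helix-loop-helix proteins bind, and the core of the NFAT motif spelled TGGAAA. Others were the T-box motif of Tbx21 and Eomes, spelled GGTGTGA, the octamer of immunoglobulin promoters, spelled ATGCAAAT, and the TATA box, spelled TATAAA. The first letters of the T-box motif can overlap the last letters of the E-box.
Klrb1c: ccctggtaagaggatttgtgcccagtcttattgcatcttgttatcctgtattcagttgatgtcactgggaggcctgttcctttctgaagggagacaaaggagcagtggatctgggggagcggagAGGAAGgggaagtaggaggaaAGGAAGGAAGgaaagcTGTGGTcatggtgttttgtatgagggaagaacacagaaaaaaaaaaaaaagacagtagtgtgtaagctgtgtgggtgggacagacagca
Cd5: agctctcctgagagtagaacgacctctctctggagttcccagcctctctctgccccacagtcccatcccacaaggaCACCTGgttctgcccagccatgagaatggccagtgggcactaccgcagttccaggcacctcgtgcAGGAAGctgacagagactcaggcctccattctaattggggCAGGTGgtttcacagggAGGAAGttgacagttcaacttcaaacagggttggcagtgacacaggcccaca
Ifng: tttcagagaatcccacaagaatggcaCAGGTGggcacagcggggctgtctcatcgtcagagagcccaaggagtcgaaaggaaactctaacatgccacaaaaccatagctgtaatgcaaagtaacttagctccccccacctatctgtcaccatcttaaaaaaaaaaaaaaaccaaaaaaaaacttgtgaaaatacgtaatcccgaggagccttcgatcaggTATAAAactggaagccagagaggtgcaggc

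Klrb1c held 1 RUNX and 3 Ets matches, 2 of them overlapping, Cd5 held 2 Ets and 2 E-box matches, and Ifng held an E-box and a TATA box. The windows of the other two genes without overlap differed from these, since Eomes held none of the 7 motifs and Fcrla held 1 E-box. The motifs were chosen with the expression values known. Of the 34 genes 25 had a window. The Ets motif was in 14 of the 25 genes and in 29.5% of 32851 windows of the table. By class it was in 10 of 12 T cell genes, 3 of 9 cytotoxic and NK genes and 1 of 4 B cell genes. A gene counted when any of its windows matched, whereas shares of the table are over single windows. The RUNX motif was in 8 of the 25 and in 14.0% of the table, and of the 8 genes 6 were cytotoxic or NK genes (Gzma, Gzmb, Klrb1c, Klrk1, Ncr1 and Prf1). The E-box was in 13 of the 25 (17.2% of the table), the NFAT motif in 7 (18.6%) and the TATA box in 2 (12.4%). The T-box and octamer motifs, in 3.33% and 1.6% of the table, matched in none of the 25. Among the measured genes with the RUNX motif, the differences of Klrb1c, Prf1 and Zap70 were above 0 and those of Gzma, Gzmb, Klrk1 and Ncr1 below it. A match is a description of letters and not a site in use.

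The mean level of each class of lymphocyte genes was also followed through the single tumors, beside that of all genes. Over all genes the mean deviation from each gene's own mean was -0.03, 0.05 and 0.13 in JAM-A-/- tumors 5333, 5346 and 5347, against -0.11, -0.04 and -0.01 in JAM-A+/+ tumors 5369, 5370 and 5393. The mean deviation of the 17 T cell genes was -0.01, -0.05 and 0.09 in JAM-A-/- tumors, against -0.10, 0.06 and 0.01 in JAM-A+/+ tumors, with tumor 5347 highest and 5369 lowest as over all genes. Tumor 5347 held the highest value of 8 of the 17 T cell genes, and also of 8553 of all 19938 genes, and 5369 held the highest value of none of the 17 and of 1883 of all genes. For the 9 cytotoxic and NK genes the mean deviation was 0.03, -0.02 and 0.04 in JAM-A-/- tumors, against 0.0026, -0.11 and 0.05 in JAM-A+/+ tumors. For the 7 B cell genes it was -0.02, 0.09 and 0.13 in JAM-A-/- tumors, against -0.08, -0.14 and 0.02 in JAM-A+/+ tumors. In all 3 classes the groups overlapped.

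Genes of macrophages and of tumor epithelium moved further between the same tumors. The range of the mean deviation over the 6 tumors was 0.19 for T cell, 0.16 for cytotoxic and NK and 0.26 for B cell genes, against 0.39 for 14 pan-leukocyte, 0.86 for 11 macrophage and 0.57 for 10 epithelial genes, and it was 0.24 for all genes. The macrophage genes averaged -0.27, 0.12 and 0.35 in JAM-A-/- tumors and -0.51, 0.29 and 0.02 in JAM-A+/+ tumors. Tumor 5369 was lowest and tumor 5347 highest for macrophage genes, as for all genes. Epithelial genes averaged -0.25, 0.22 and 0.28 in JAM-A-/- tumors and -0.29, -0.03 and 0.06 in JAM-A+/+ tumors, with 5369 again lowest. The lists also differed in signal level. Values ran from 2.67 to 8.02 for the 33 lymphocyte genes, 5.47 to 11.23 for macrophage genes and 6.82 to 12.89 for epithelial genes. The part of signal level in these ranges was not tested, nor was that of tissue makeup in the values of the single lymphocyte genes.

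**Figure D3:**
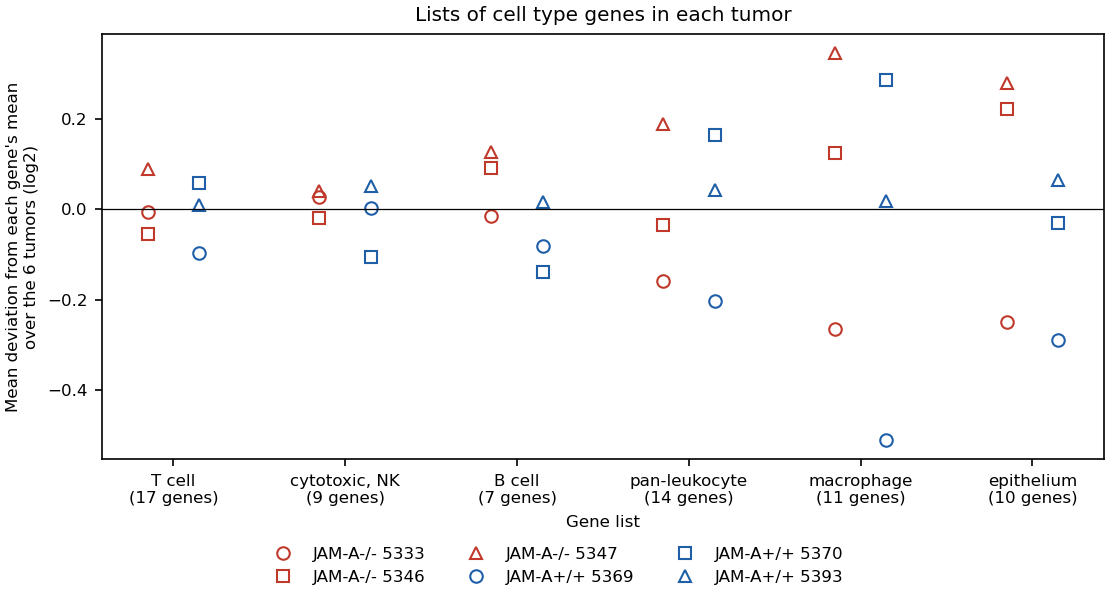
Mean deviation of each list's genes from their own mean over the 6 tumors (y axis, RMA log2), by gene list (x axis), with 1 symbol per tumor, red for JAM-A-/- at the left and blue for JAM-A+/+ at the right. T cell, cytotoxic and NK, and B cell lists span 0.16 to 0.26, and macrophage genes span 0.86, with tumor 5369 at the bottom. The lists also differ in signal level.

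Wider lists of the same lineages were read against the 5.33% of all genes that met the criteria, with 944 such genes above and 118 below their JAM-A+/+ level. Of 24 measured further T cell genes 1 met them, with a median difference of 0.10. It was Vav1, an exchange factor of T cell receptor signalling that other leukocytes share, with 7.42, 7.32 and 7.62 in JAM-A-/- tumors, against 6.71, 7.11 and 7.07 in JAM-A+/+ tumors. The groups of Vav1 did not overlap, and its difference was 0.49 (limma adjusted p = 0.367). Without tumor 5369, the lowest, the difference was 0.36 and missed the fold of the criteria.

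Of 14 further cytotoxic and NK genes, with a median of 0.08, 1 met the criteria and was lower in JAM-A-/- tumors. Klrd1, which encodes CD94, the partner chain of the NKG2 receptors, had 3.99, 3.43 and 3.80 in JAM-A-/- tumors, against 4.35, 4.02 and 4.52 in JAM-A+/+ tumors. The highest JAM-A-/- value lay just under the lowest JAM-A+/+ value, and the difference was -0.56 (limma adjusted p = 0.393). Without tumor 5346 it was -0.40, without 5369 -0.53 and without 5393 -0.45, and in each case the criteria were missed. Klrc1, which encodes an NKG2 partner of CD94 and was named after its values were seen, had a difference of 0.18 with overlap between the groups.

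Of 19 further B cell and plasma cell genes, with a median of 0.02, 1 met the criteria in each direction. Cd72, a co-receptor that damps B cell receptor signals, had 5.86, 5.96 and 5.90 in JAM-A-/- tumors, against 5.31, 5.35 and 5.36 in JAM-A+/+ tumors. The groups stood well apart, and the difference of 0.57 (limma adjusted p = 0.214) met the criteria when any 1 tumor was left out and after each of the 3 scalings. Blnk, the adaptor that links the B cell receptor to its downstream enzymes, had 8.27, 7.83 and 8.35 in JAM-A-/- tumors, against 8.91, 8.48 and 8.71 in JAM-A+/+ tumors. These values lay above the range of the 7 B cell genes, 3.24 to 6.24, and which cells gave them was not tested. The difference of Blnk, -0.55 (limma adjusted p = 0.386), ran the other way, and without tumor 5346 (-0.39) or 5369 (-0.45) it missed the criteria.

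Among 14 pan-leukocyte genes, with a median of 0.03, 1 again met the criteria in each direction. Cytip, a protein of leukocytes that binds cytohesin and tempers integrin adhesion, had 7.68, 7.91 and 8.31 in JAM-A-/- tumors, against 8.88, 8.49 and 8.96 in JAM-A+/+ tumors. Its difference of -0.81 (limma adjusted p = 0.280) was the lowest of the list and met the criteria when any 1 tumor was left out. Ptpn6, the phosphatase SHP-1, had 8.65, 8.72 and 9.0 in JAM-A-/- tumors, against 8.19, 8.51 and 8.52 in JAM-A+/+ tumors (0.38, limma adjusted p = 0.432). It missed the criteria without tumor 5346 (0.42), 5347 (0.28) or 5369 (0.28). Ptprc, which encodes CD45, the common antigen of leukocytes, had 7.57, 7.61 and 7.95 in JAM-A-/- tumors and 7.71, 8.08 and 7.82 in JAM-A+/+ tumors, with overlap and a difference of -0.16 (-0.52 to 0.20). It was named after its values were seen.

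Genes that attract T cells or answer interferon-gamma were read beside Ifng. Of 12 measured, with a median of 0.09, 2 met the criteria, against 5.33% of all genes. Both were higher in JAM-A-/- tumors, the direction of 944 of the 1062 genes called among all. Cxcl10, a chemokine for activated T and NK cells, had 6.06, 6.76 and 6.44 in JAM-A-/- tumors, against 6.10, 5.93 and 5.74 in JAM-A+/+ tumors. The groups overlapped in tumors 5333 and 5369, and the difference of 0.50 (limma adjusted p = 0.432) missed the criteria without tumor 5346 (0.33), 5347 (0.49), 5370 (0.50) or 5393 (0.41). Ido1, an interferon-induced enzyme that degrades tryptophan and restrains T cells, had 5.21, 5.82 and 5.21 in JAM-A-/- tumors, against 4.45, 4.77 and 5.19 in JAM-A+/+ tumors. Its groups were barely apart, and the difference of 0.61 (limma adjusted p = 0.430) missed the criteria without tumor 5346 (0.41), 5369 (0.43) or 5370 (0.59).

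For the macrophage antigen, CD11c and MHC class II stains the study reported no significant difference. The RNA of these myeloid antigens had no detectable difference either. Adgre1, which encodes the macrophage surface antigen of the stain, had 7.49, 7.63 and 8.22 in JAM-A-/- tumors and 7.37, 8.09 and 7.82 in JAM-A+/+ tumors, a difference of 0.02 (-0.55 to 0.59). Itgax, which encodes CD11c, had 6.87, 6.90 and 7.14 in JAM-A-/- tumors and 6.67, 7.07 and 7.11 in JAM-A+/+ tumors, a difference of 0.02 (-0.34 to 0.38). The MHC class II genes H2-Aa, H2-Ab1 and H2-Eb1 differed by 0.01 (-0.60 to 0.63), 0.11 (-0.57 to 0.79) and -0.09 (-0.41 to 0.22). All 5 of these myeloid genes were highest in tumor 5347, as were 8553 of all 19938 genes. The interval of each of the 5 was wider than that of Cd8a. Staining counts cells in sections, and these values are RNA levels of whole tissue, so their sizes cannot be set against each other.

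No gene of the macrophage, granulocyte and mast cell, epithelial or lymph node stroma lists met the criteria. By smallest p, the macrophage list was led by the Fc receptor Fcgr1 (0.23) and the complement gene C1qc (0.28), and the granulocyte list by Ly6g (0.23) and Mpo (-0.25), genes of neutrophils. The epithelial list was led by the keratins Krt18 (0.34) and Krt19 (0.41). The lymph node list was led by the adhesion molecule Madcam1 (0.19) and the cytokine gene Tnfsf11 (0.17), and the lowest limma adjusted p of these 8 genes was 0.497, that of Ly6g.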

How the data were processed

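RNA of 6 whole mammary tumors was hybridised to Affymetrix mouse gene arrays, 1 array per tumor. The genotype and title given for each tumor set its group. Deposited values are on the log2 scale and come from RMA, which the authors ran in Affymetrix Expression Console 1.1 according to the submitters' processing notes. RMA normally quantile-normalizes the probes before it summarises them, and the deposited probe set values still had medians of 6.23 to 6.34 and upper quartiles of 8.11 to 8.42, so the scalings here were a second step. For filters and for the authors' own array test, the details were not given in the sources used here. Arrays hold no read depth, and their number limits the precision.

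All 35557 probe sets entered 1 fit of limma 3.58.1 (R 4.3.3; lmFit and eBayes with defaults, genotype as the only term), which gave differences, standard errors, intervals and two-sided p-values, and the p-values were adjusted by Benjamini-Hochberg over the whole table. A call required an unadjusted p under 0.05 together with a fold of 1.3 or more. An exact permutation test of a single gene cannot go below p = 0.1 with 3 tumors a group. The annotation pairs 21789 probe sets with 1 symbol and 1621 with several, and 12147 are not listed. Of the probe sets, 21698 were matched by gene identifier to the RefSeq gene table of GRCm38.p6, used for names and gene order. Each gene was read from its probe set of highest mean, and each measured lymphocyte gene had 1 such probe set. No 2 arrays held identical values.

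The lymphocyte genes, the other lists, the criteria and the alternatives were chosen with earlier results of these data known, so lists are described by counts and medians without a test. Named genes are all 34 lymphocyte genes, F11r, the genes of stained antigens and, from each other list, every gene meeting the criteria or else the 2 of smallest p. Outside this rule, Ptprc, Klrc1, Glycam1, Cxcl13, Ccl19, Lta, Jchain, Mzb1, Tnfrsf17, Sh2d1a, Rasgrp1, Ccl5 and Gzmc were named after their values were seen. The lists held further genes of T cells, cytotoxic and NK cells and B and plasma cells, and genes of leukocytes in general, T cell recruitment and interferon-gamma response, lymph node stroma, stained myeloid antigens, macrophages, neutrophils and mast cells, and epithelium. The alternatives were 3 scalings, the mean of a gene's probe sets, leaving out the 40% dimmest probe sets, each tumor left out in turn, array weights, a robust prior fitted with an intensity trend, an equal-variance test of each probe set without moderation and a fold of 1.5. Promoter letters were searched in Python 3.11.15, and the fit was tested on simulated data.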

Additional observations from a re-analysis of the deposited data

How the results depend on the processing

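The count of lymphocyte genes meeting the criteria, 0 of 33, was 1 with array weights (Lat) and 0 to 1 when each tumor was left out in turn, the 1 being Ncr1 without tumor 5369. It was 0 under every other setting run, and without the dimmest probe sets 10 of the 33 genes were left, with 0 calls. A stricter fold of 1.5 could not add a call. The mean of a gene's probe sets repeated the deposited values, since each lymphocyte gene had 1 probe set. Neither setting could therefore change the count. The lowest adjusted p of a lymphocyte gene ranged between 0.170 with array weights and 0.698 without tumor 5369. Quantile normalization over all probe sets gave a median of 0.0736 over T cell genes and 0.0356 over cytotoxic and NK genes, beside 0.01 and -0.03 as deposited. Leaving out single tumors gave -0.0783 to 0.0667 for the cytotoxic and NK median, with 0.05 without tumor 5369. The B cell median was 0.09 to 0.20 under all alternatives. Of 439 values of single lymphocyte genes under alternatives, 437 missed the criteria, as all did in the deposited values. The 439 include the 33 values that the mean of the probe sets repeated unchanged. Among genes of other lists, Cytip and Cd72 met the criteria under every alternative they were run in, Cd72 being among the dimmest probe sets that 1 of these left out, and a fold of 1.5 was tried for lymphocyte genes only. Ptpn6 missed them under both quantile normalizations (0.27 and 0.24) and with array weights (0.30), Vav1 with array weights (0.36), and Klrd1, Blnk, Ptpn6, Cxcl10 and Ido1 in the equal-variance test. The cause of these changes was not tested. No paired analysis was possible because the groups share no tumor number.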

Other observations

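A few genes that lymph node tissue or antibody-secreting cells also express, chosen after their values were seen, were highest in 1 JAM-A+/+ tumor, 5370. Glycam1, a mucin of high endothelial venules that mammary epithelium also makes, had 5.19, 5.45 and 5.78 in JAM-A-/- tumors, against 5.02, 8.53 and 5.70 in JAM-A+/+ tumors. Cxcl13, a chemokine for B cells, had 6.40, 6.22 and 6.13 in JAM-A-/- tumors and 5.79, 6.89 and 5.45 in JAM-A+/+ tumors. Jchain, the joining chain of secreted immunoglobulin, had 4.04, 4.10 and 4.14 in JAM-A-/- tumors and 4.0, 4.72 and 3.83 in JAM-A+/+ tumors, and Cd3d had its highest value, 4.74, in the same tumor. Most genes of these kinds did not share this pattern. Of 9 lymph node genes 3 were highest in tumor 5370 (Glycam1, Cxcl13 and Ccl19) and 2 were lowest in it (Madcam1 and Lta), and of the plasma cell genes Mzb1 was lowest in it and Tnfrsf17 highest in tumor 5369. The 7 B cell genes did not share it either, since 4 of them were lowest in tumor 5370, where their mean deviation was -0.14.

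In the wider T cell and wider cytotoxic and NK lists, Sh2d1a, Rasgrp1, Ccl5 and Gzmc missed the criteria but were without overlap, with all JAM-A-/- tumors above all JAM-A+/+ tumors. They were named for this after their values were seen. Sh2d1a, an adaptor of T and NK cell receptors, had 4.48, 4.39 and 4.60 in JAM-A-/- tumors, against 4.02, 4.25 and 4.26 in JAM-A+/+ tumors (difference 0.31, limma adjusted p = 0.438). Rasgrp1, which activates Ras below the T cell receptor, differed by 0.32 (limma adjusted p = 0.472). Ccl5, a chemokine secreted by activated T and NK cells, had 7.09, 7.12 and 7.32 in JAM-A-/- tumors, against 6.84, 6.88 and 6.98 in JAM-A+/+ tumors (difference 0.28, limma adjusted p = 0.456). Gzmc, a granzyme, had 5.04, 4.81 and 4.86 in JAM-A-/- tumors, against 4.0, 4.76 and 4.74 in JAM-A+/+ tumors, where tumor 5369 was low, and its fold of 1.32 passed that of the criteria while its p did not (difference 0.40, limma adjusted p = 0.517). Sh2d1a, Rasgrp1 and Ccl5 had folds below 1.3, and groups without overlap were found in 15% of all genes, 2474 of them higher and 509 lower in JAM-A-/- tumors.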
